A study of Mus musculus with 8 samples.

Results

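The baseline transcriptome described here is that of the vehicle arm of a study of CD4+ T cells from mouse spleen: 4 libraries out of 8 in the series, and every gene that the deposited table marks as protein coding, which is 22046 of 54532 listed genes. The rule takes every protein-coding gene and uses no measured value. The other arm, given dimethyl succinate, is not analysed here, so nothing below is a comparison between treatments. The cells came from wild-type mice, and those of all 4 libraries were given vehicle in an experiment lasting 3 days. The column headers of the deposited table name the control of that experiment DMSO. Libraries were made from total RNA with an mRNA-seq kit. No strain, age, sex, purity or mode of stimulation was given in the sources used here, and nothing says that the 4 libraries came from separate animals or cultures. Spread between libraries is therefore given as the standard deviation (SD) over 4 samples that may be technical replicates.

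CD4+ T cells recognise peptides on major histocompatibility complex (MHC) class II molecules through the T cell receptor, whose signal leaves the membrane through the CD3 chains and the kinases LCK and ZAP70. Naive cells recirculate through lymphoid organs, and after activation they take up interleukin 2, divide, switch to high glycolytic flux and can enter helper states marked by the factors T-bet (Tbx21), GATA3, BCL6 or FOXP3. Levels are given as FPKM, the number of fragments per kilobase of listed gene length, scaled to the size of the library, so levels of different genes are compared per length. Rank 1 is the protein-coding gene with the highest mean FPKM. In a bulk sample, fewer cells that express a gene and less RNA of that gene per cell cannot be told apart.

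The 4 libraries held 13407295 to 15738869 counts, and 97.5% to 97.6% of these fell on protein-coding genes. A gene of 1 kilobase with a single count had 0.0633 to 0.0745 FPKM. Replicate 4 stood apart from the other 3 libraries. The Pearson correlation of log2(FPKM + 1) over the 9769 genes with a mean of at least 1 FPKM was 0.996 between every pair of replicates 1, 2 and 3 and 0.977 to 0.980 between each of them and replicate 4. It describes likeness across genes, which are not independent replicates. Counts on mitochondrially encoded genes made up 1.19% to 1.39% of counts in replicates 1 to 3 and 0.200% in replicate 4. The common biological coefficient of variation, edgeR's estimate of the spread between libraries beyond counting noise, was 12.7% with all 4 libraries and 4.28% without replicate 4. The labels give no batch or date for any library, and the part that RNA quality or preparation of replicate 4 played in the levels below was not tested. Each level is a mean of 4 libraries, with the mean of replicates 1 to 3 added where it matters.

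A mean of at least 1 FPKM was reached by 9769 protein-coding genes, or 44.3% of those listed. At least 10 FPKM was reached by 4923 genes, or 22.3%, at least 100 FPKM by 381, or 1.73%, and at least 1000 FPKM by 22. Without replicate 4 these numbers were 9776, 4916, 367 and 21. The shares of 44.3%, 22.3% and 1.73% are the background for the counts of list members at 1, 10 and 100 FPKM given below. A further 5791 genes had counts but a mean under 1 FPKM, and 6486 genes, or 29.4%, had no count in any of the 4 libraries. The median over all protein-coding genes was 0.336 FPKM. The 100 highest genes took 29.3% of the summed FPKM of protein-coding genes, with 28.8% to 30.0% in single libraries, and the 1000 highest took 60.8%.

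**Figure D1:**
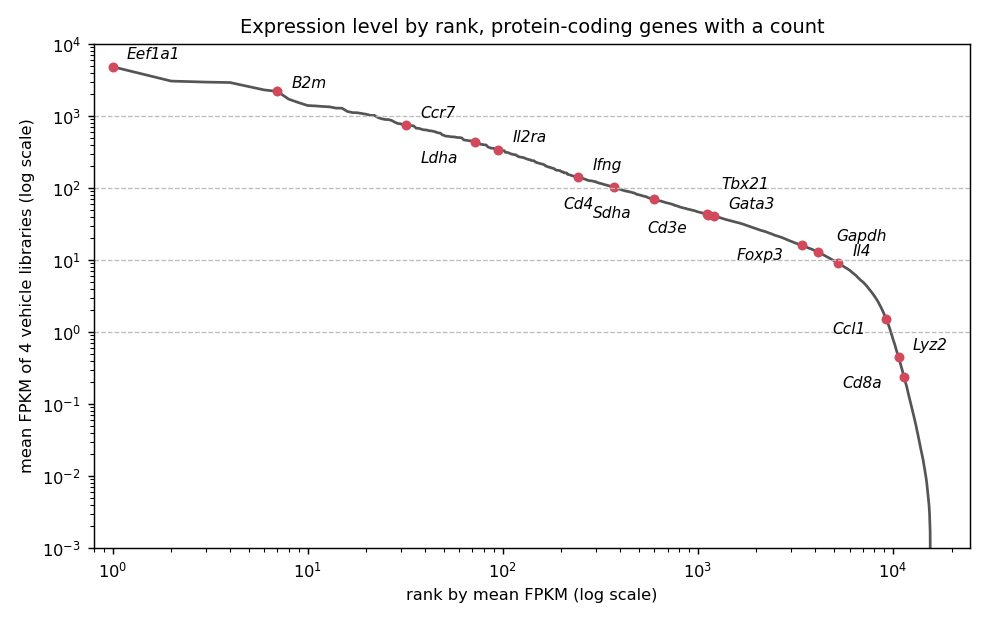
Mean FPKM over the 4 vehicle libraries (vertical axis, log scale) against rank (horizontal axis, log scale) for protein-coding genes with at least 1 count; points mark named genes and dashed lines mark 1, 10, 100 and 1000 FPKM. Eef1a1 stands at rank 1, Il2ra at rank 95, Cd4 at rank 371, Foxp3 at rank 3406, and Cd8a lies below 1 FPKM.

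The head of the distribution was made mostly of translation genes. Eef1a1, the elongation factor that brings aminoacyl-tRNA to the ribosome, had the highest level in every library, with 4455, 4554, 4649.7 and 5692 FPKM in replicates 1 to 4 (mean 4838 ± 575, SD, n = 4). Replicate 4 was the highest of the 4 and the other 3 lay close together. Its paralogue Eef1a2, known from muscle and neurons, had 0 counts in all 4 libraries, against an upper limit of 0.0249 FPKM that 3 counts over the 4 libraries would give. Eef2, which moves the ribosome along the message, was at rank 5 with 2504, 2576, 2590.2 and 2573 FPKM and varied little between libraries. The ribosomal proteins Rplp1 (3054 FPKM), Rps3a1 (2958), Rplp0 (2301), Rps4x (1714), Rpl4 (1533), Rps2 (1379), Rps6 (1287) and Rpl8 (1284) were all among the 15 highest genes by mean FPKM. Of 83 cytosolic ribosomal protein genes and close paralogues, 80 reached 1 FPKM and 73 reached 100 FPKM, and together they took 17.1% of the summed FPKM, with 16.4% to 17.98% in single libraries. Single ribosomal protein genes differed more between libraries than their sum did: Rps3a1 had 2322, 2604, 2348 and 4559 FPKM, highest in replicate 4, while Rpl32 had 988, 1100.2, 1062 and 647, lowest in replicate 4.

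The remaining genes among the 25 highest were few in kind. B2m, the light chain of MHC class I, had 2401, 2465, 2548 and 1371 FPKM, and H2-K1, a class I heavy chain, had 1003, 1055, 1015 and 1015. The replicate 4 value of B2m lay below the other 3, while the H2-K1 values did not separate any library. The cytosolic chaperone Hsp90ab1 had 1338 ± 147 FPKM. The actin monomer binder Tmsb4x had 1156 ± 92.7 FPKM and beta-actin, Actb, 1109 ± 33.1. The translationally controlled tumour protein gene Tpt1 had 915 ± 118 FPKM. Of 22 cytoskeletal and housekeeping genes 15 reached 100 FPKM, and of 14 elongation and translation factors 9 did, beside 1.73% of all protein-coding genes. The other members of the 25 were Rps15, Rpl19, Rpl41, Rps14, Rpl32 and Rpsa, at 894 to 1115 FPKM, and the mitochondrially encoded mt-Co1, mt-Cytb and mt-Nd1.

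The mitochondrially encoded genes, which give subunits of the respiratory chain, were the clearest place where a mean over 4 libraries hides a split. The cytochrome oxidase subunit mt-Co1 had 3864, 3294, 3835 and 672 FPKM, so that it ranked 2 in replicates 1 to 3 and 35 in replicate 4. The cytochrome b gene mt-Cytb had 1851, 1628, 1912 and 203 FPKM and the complex I subunit mt-Nd1 1743, 1622, 1809 and 247. In all 3 genes replicate 4 lay far below the others, and without it the means were 3664, 1797 and 1725 FPKM. Of the 12 mitochondrially encoded genes with a mean of at least 10 FPKM, 11 were at least 2-fold lower in replicate 4 than the mean of replicates 1 to 3, with a median log2 ratio of -2.63. Levels among these genes also differed widely although they are cut from shared precursor transcripts: mt-Co2 had 73.98 FPKM, mt-Atp6 55.6, mt-Nd3 55.4 and mt-Co3 50.3. For these 4 genes 98.0% to 100% of all 50-base stretches of their GENCODE M21 transcripts also occur in a transcript of another gene, against 0% for mt-Cytb and mt-Nd1 and 51.1% for mt-Co1. How reads that match several genes were counted was not given in the sources used here, so the levels of such genes are uncertain, and the part of shared sequence in them was not tested.

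The same doubt covers nuclear genes too, and those given here are examples. Gapdh, the glycolytic enzyme often used as a loading control, stood at only rank 4140, with 7.82, 30.1, 6.61 and 7.07 FPKM from 461, 1966, 367 and 420 counts. Replicate 2 lay far above the other 3 libraries, which lay together, and the mean was 12.9 FPKM with it and 7.17 without it. Of the 50-base stretches of its protein-coding transcripts, 58.4% also occur in a transcript of another gene. That share was 64.1% for the isoprenoid synthesis gene Fdps, which had 0.6896 ± 0.137 FPKM, 71.0% for Rps3a1, 68.0% for the glycolytic Pgk1 and 52.4% for Eef1a1. It was 0% for B2m, Cd4 and Ccr7. Among other genes named in this report it was 78.4% for Pin4, 73.9% for Rpl19, 51.1% for Mif and 49.5% for Eno1. For Odc1 it was 42.2%, for Pgam1 41.5%, for Il2rg 40.8% and for Ccnb1 40.6%. Levels of all genes with a large share are uncertain, and the part of shared sequence in them was not tested.

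T cell identity genes were high. Of 11 genes of the receptor complex and its coreceptors, 10 reached 10 FPKM, with a median of 95.1 FPKM against 0.336 over all protein-coding genes. The scavenger-type receptors Cd5 (273 ± 32.4 FPKM) and Cd6 (251 ± 20.4) and the adhesion receptor Cd2 (238 ± 28.1) were the highest of the list. Cd4, the coreceptor that binds class II, had 108, 112, 111 and 78.6 FPKM, a mean of 102 ± 15.9 (SD, n = 4) at rank 371 that was 110.3 at rank 327 without replicate 4. Cd3e, the CD3 epsilon chain, had 45.1, 45.2, 48.1 and 31.9 FPKM and was also lowest in replicate 4. Per length, the 4 CD3 chains stood in the order Cd3d (99.3 FPKM), Cd247 (47.9), Cd3e (42.6) and Cd3g (37.6). Cd3d exceeded Cd247 in 4 of 4 libraries without overlap, while the ranges of the other neighbours overlapped. The surface phosphatase gene Ptprc, which encodes CD45, had 95.1 ± 2.56 FPKM, and Cd7 was the only member under 1 FPKM (0.369 FPKM from 24 counts). Counting is not stated to use strand, and 56.4% of the annotated exon bases of Cd247 lie opposite exons of other genes, Pou2f1 among them, so reads of these genes may not be told apart.

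Markers of other cell types were low, with exceptions that are named here. Of 79 genes in 8 such lists, 16 reached 1 FPKM and 2 reached 10 FPKM, with a median of 0.237 FPKM, and 7 had no count. Over all protein-coding genes 44.3% and 22.3% reached these levels. Among 13 B cell markers only Cd79b reached 1 FPKM (1.01 ± 0.292). The next were Cd79a (0.696) and Mzb1 (0.561), while Ms4a1 had 0.0306 ± 0.0132 FPKM from 11 counts in all libraries. Among 12 monocyte and macrophage markers only Cd68 reached it (3.46, 4.38, 4.98 and 1.94 FPKM). Spi1 (0.793 FPKM) and Ccr2 (0.588) came next. The macrophage genes Lyz2 (0.448 FPKM), Csf1r (0.0660, or 0.0358 without replicate 4) and Adgre1 (0.0160) did not. The cytotoxic coreceptor chain Cd8a had 0.237 ± 0.0440 FPKM, against 3.29 ± 0.0845 for Cd8b1. Of 10 natural killer cell markers 4 reached 1 FPKM, near the 44.3% over all protein-coding genes, led by Nkg7 (49.9), Gzma (9.28) and Eomes (2.42). Ncr1, the defining receptor of that lineage, had 0.515 ± 0.131 FPKM. Of 12 granulocyte and mast cell markers 4 reached 1 FPKM, and all 4 are known from basophils or mast cells: Mcpt8 (3.36 ± 0.449), Cpa3 (3.31 ± 0.717), Prss34 (1.88 ± 0.764) and Fcer1a (1.28 ± 0.226). The neutrophil genes S100a8 and S100a9 had 1 count and 0 counts. Of 10 erythroid and platelet markers, Pf4 (8.76, 7.19, 5.16 and 12.9 FPKM) and Itga2b (4.05, 4.09, 3.86 and 7.28) reached 1 FPKM, both highest in replicate 4, and the haemoglobin gene Hba-a1 had 0.944. Pecam1, an adhesion molecule of endothelium that leukocytes also carry, had 5.49 ± 0.883 FPKM and was the only 1 of 11 stromal and endothelial markers at 1 FPKM or more. Vwf (0.273) and Acta2 (0.0766) came next, while Cdh5, Col3a1 and Dcn had no count.

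Genes of the class II pathway, whose products present antigen to CD4+ T cells, were higher: 5 of 6 reached 1 FPKM and the median was 10.97. The invariant chain Cd74 had 53.1, 54.1, 47.3 and 74.9 FPKM, the peptide exchange chain H2-DMa 25.9, 26.6, 26.8 and 15.1, H2-Eb1 13.5, 13.03, 10.4 and 17.9, H2-Ab1 7.37, 7.88, 7.64 and 9.99 and H2-Aa 6.25, 4.995, 5.32 and 5.57. Their regulator Ciita had 0.238 ± 0.0216 FPKM from 131 counts. Replicate 4 was highest for Cd74, H2-Eb1 and H2-Ab1. The summed level of the 13 B cell markers ranged from 3.49 to 3.70 FPKM over the libraries and that of the 12 monocyte and macrophage markers from 4.44 to 7.07. Of the 9 dendritic cell markers, 2 transcription factors reached 1 FPKM, Irf8 (39.6 ± 2.19) and Batf3 (9.77 ± 2.38), and Zbtb46 had 0.809 FPKM, while the defining Itgax had 0.183 FPKM, Clec9a 1 count and Siglech 0 counts. The part of other cells in the class II levels was not tested. Of 10 genes of other organs, such as Alb of liver and Umod of kidney, none reached 1 FPKM and 8 had no count. Gfap of astrocytes had 0.0895 FPKM.

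**Figure D2:**
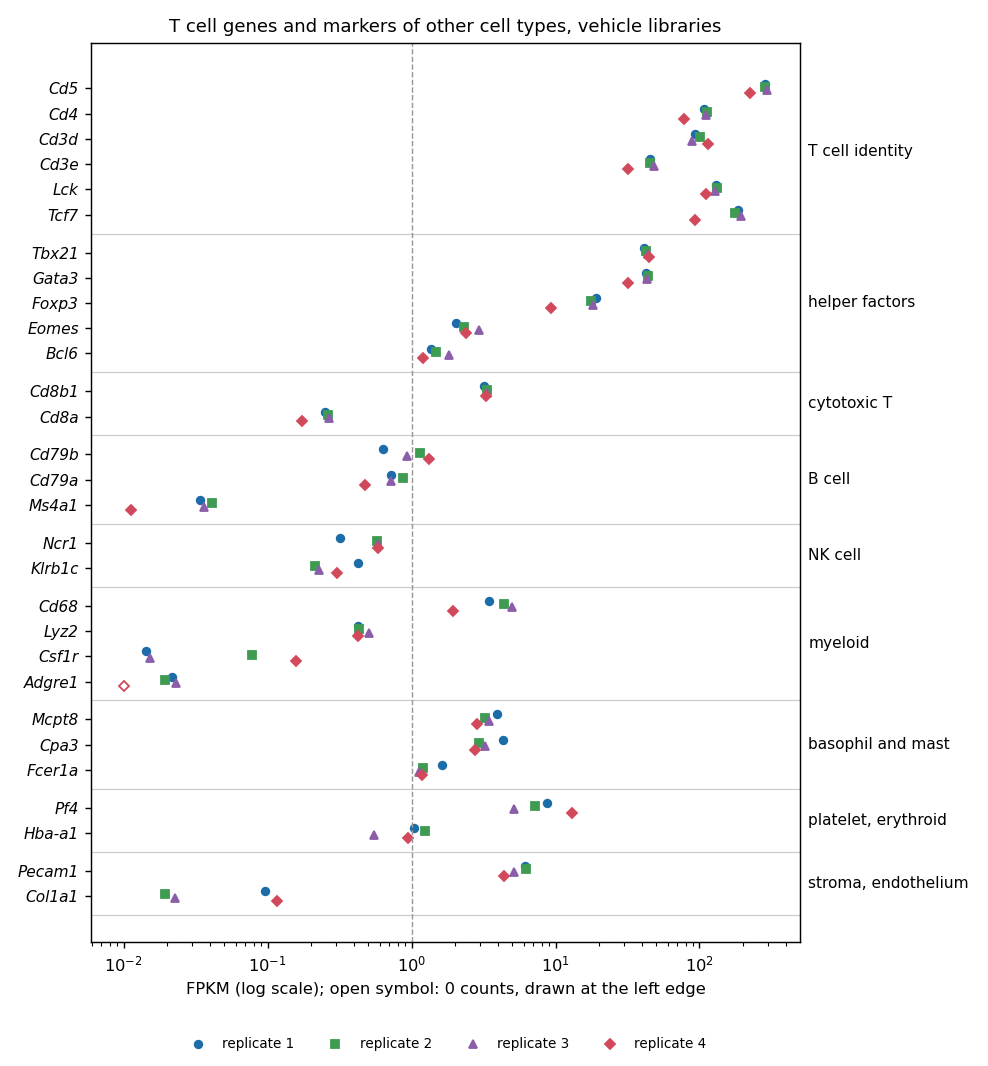
FPKM (horizontal axis, log scale) of T cell genes and of markers of other cell types, with 1 symbol per vehicle library; open symbols are libraries with 0 counts and the dashed line is 1 FPKM. T cell identity genes sit between 31.9 and 296 FPKM, and most markers of other cell types sit near or below 1 FPKM.

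The signalling machinery behind the receptor was present throughout: all 23 measured members of that list reached 1 FPKM and 19 reached 10, with a median of 25.6 FPKM. The kinases Lck (126 ± 10.3) and Zap70 (114 ± 17.9) and the adaptors Lcp2 (124 ± 15.5) and Lat (121 ± 27.1) each exceeded 100 FPKM on average. Replicate 4 was lowest for Lck and Lcp2 and highest for Lat (101, 109, 112 and 161) and Zap70 (101, 111, 104 and 140.4). The kinase Csk, which restrains LCK, was among the steadiest members, with 76.5, 75.5, 76.5 and 75.3 FPKM. Of the calcium-regulated factors, Nfatc1 (33.6 FPKM) stood above Nfatc3 (18.4) and Nfatc2 (13.1). The lowest member was the kinase Txk (1.42 ± 0.191).

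Of 19 transcription factors known from the T lineage, all reached 1 FPKM and 14 reached 10, with a median of 35.2. Tcf7, which encodes TCF1, a factor of naive and self-renewing T cells, led them with 187, 176, 193 and 93.7 FPKM, and replicate 4 lay far below the other 3, whose mean was 185. The chromatin organiser Satb1 had 89.99 ± 4.52 FPKM, Ikzf1 79.8 ± 5.79 and Ets1 71.5 ± 2.66. The T lineage commitment factor Bcl11b had 43.3, 44.3, 42.8 and 45.2 FPKM and did not separate any library. Zbtb7b, which encodes ThPOK, the factor of the CD4 branch, had 20.8 ± 1.86 FPKM, and Runx3, known from the CD8 branch and from T helper 1 cells, 22.7 ± 1.94, which was higher in 4 of 4 libraries although the ranges of this pair overlapped.

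Factors of several helper states were found side by side. Tbx21 had 41.5, 42.6, 44.2 and 44.97 FPKM and Gata3 42.8, 43.9, 43.1 and 31.9. The ranges of this pair overlapped, Tbx21 was above Gata3 in 2 of 4 libraries, and neither can be placed first beyond the spread. Foxp3, the factor of regulatory T cells, had 19.2, 17.6, 18.2 and 9.297 FPKM, a mean of 16.1 ± 4.57 that was 18.3 without replicate 4. It lay below Gata3 and above the next factor, Eomes (2.42 ± 0.375), in 4 of 4 libraries. Bcl6 of follicular helper cells (1.46 ± 0.261) was near 1 FPKM. Of the annotated exon bases of Foxp3, 18.6% are shared with the same-strand gene Flicr and 18.7% lie opposite other genes.

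Among 21 further helper cell factors 18 reached 1 FPKM and 13 reached 10, with a median of 22.7. Irf4, which is induced by receptor signalling, had 354, 341, 363 and 331 FPKM and ranked 93. Stat5a had 126 ± 5.601 FPKM, Bhlhe40 110.1 ± 3.55 and the AP-1 partner Batf 81.8 ± 7.19. Per length the STAT factors, which carry cytokine signals to the nucleus, named here stood in the order Stat5a, Stat5b (72.3), Stat6 (56.4), Stat3 (50.7), Stat2 (16.9) and Stat4 (6.87). Of these, Stat6 and Stat3 were the only neighbours that overlapped between libraries. Of the exon bases of Stat4 26.7% are shared with the same-strand gene Gm28177. Maf (11.04 ± 0.648) and Prdm1 (7.39 ± 0.823), known from interleukin 10 producers, were lower, and Ahr (3.17 ± 0.648) and Rora (3.05 ± 0.2696) lower still.

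Lists that define the helper states were filled unevenly. Of 14 T helper 1 genes 13 reached 1 FPKM and 8 reached 10, with a median of 11.9 FPKM. Of 12 T helper 2 genes 9 and 6 did so, with a median of 11.8. Of 12 T helper 17 genes 9 and 3 did so, with a median of 2.55. Of 16 regulatory T cell genes all reached 1 FPKM and 12 reached 10, with a median of 32.7. Of 12 follicular helper genes 11 and 6 did so, with a median of 10.9, among them Cd200 (58.3 ± 4.43). Several members stand for activation in any CD4+ cell, among them Il2ra, Tnfrsf4 and Icos, so a count is not a share of cells in a state. Of regulatory genes with a narrower use, Izumo1r, which encodes folate receptor 4, had 59.04 ± 7.604 FPKM, Gpr83 12.5 ± 2.15, Lrrc32, which encodes GARP, 11.5 ± 1.96, Ikzf4 12.2 ± 2.38, Ikzf2, which encodes Helios, 8.45 ± 0.411, and Nrp1 2.05 ± 0.3001.

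Genes of naive cells and genes of activated cells were expressed side by side in the same libraries. The lymph node homing receptor Ccr7 had 741, 714, 796 and 724 FPKM and ranked 32 of all protein-coding genes, the highest receptor gene of any list. The naive-cell factors Lef1 (35.2 ± 5.29), Bach2 (22.4 ± 2.38) and Foxp1 (20.2 ± 2.84), the interleukin 7 receptor Il7r (7.95 ± 1.199) and the egress receptor S1pr1 (10.4 ± 2.34) were lower. Of the 15 genes in the list of naive and memory genes 14 reached 1 FPKM and 12 reached 10, with a median of 19.3 FPKM. Of the activation list, 21 of 22 genes reached 1 FPKM and 19 reached 10, with a median of 38.4. The early activation antigen Cd69 had 63.96, 64.3, 65.2 and 65.6 FPKM and was among the steadiest genes of the list. The transferrin receptor Tfrc had 101 ± 2.21 FPKM and the amino acid transporter pair Slc7a5 (154 ± 10.4) and Slc3a2 (124 ± 6.43) stood higher. Of the AP-1 genes, Junb (279 ± 14.7) stood far above Jun (27.2 ± 1.61), Fosl2 (10.5 ± 0.488), Fos (4.36 ± 0.358) and Fosb (0.637 ± 0.0929). The receptor-induced NR4A genes were ordered Nr4a1 (69.9 ± 3.83), Nr4a3 (41.8 ± 5.19) and Nr4a2 (8.36 ± 0.277) without overlap. Egr1 (35.02 ± 7.36) and Egr2 (24.3 ± 2.96) overlapped, and Egr3 (12.6 ± 0.609) lay below both. Cd44, an activation and memory marker, had 16.9 ± 1.85 FPKM.

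The receptor for interleukin 2 was among the highest surface genes. Its alpha chain Il2ra, which raises the affinity for the cytokine, had 366, 375, 381 and 245 FPKM, with a mean of 342 ± 64.9 at rank 95. Replicate 4 was lowest and the other 3 lay close together, and without it the mean was 374 at rank 83. The beta chain Il2rb had 188 ± 12.7 FPKM and the common gamma chain Il2rg 112 ± 21.3, and the order alpha, beta, gamma held in 4 of 4 libraries without overlap. Of the exon bases of Il2rg 30.5% are shared with another gene of the same strand.

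Costimulatory receptors were expressed as a group, with 13 of 13 at or above 1 FPKM and 11 at or above 10, and a median of 46.3 FPKM. Tnfrsf4, which encodes OX40, had 567, 577, 602 and 408 FPKM and Tnfrsf18, which encodes GITR, 223, 220.3, 231 and 211. Icos had 162 ± 17.4 FPKM, Tnfrsf9, which encodes 4-1BB, 95.6, 105, 98.02 and 138, and Cd28 73.1 ± 9.42. Replicate 4 was lowest for Tnfrsf4, Icos and Cd28 and highest for Tnfrsf9, and without it the means of Tnfrsf4 and Tnfrsf9 were 582 and 99.6 FPKM. Of the exon bases of Tnfrsf18 27.2% lie opposite other genes. Tnfrsf8, which encodes CD30, had 46.3 ± 5.28 FPKM and Cd27 35.7 ± 5.27. Of 16 inhibitory receptors and ligands 12 reached 1 FPKM and 8 reached 10, with a median of 17.6. Beside Cd5, the highest were Ctla4 (132, 136, 123 and 101 FPKM), Lag3 (94.6, 94.95, 103 and 109), Btla (81.2 ± 6.76) and Cd274, which encodes PD-L1 (61.6 ± 4.02). Tigit had 49.3 ± 8.15 FPKM, Pdcd1, which encodes PD-1, 27.9 ± 2.46, and Havcr2, which encodes TIM-3, 5.905 ± 0.315. Cd160, Klrg1, Cd244a and Lair1 stayed under 1 FPKM.

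Cytokine genes of different helper states were detected together. Of 32 interleukins 14 reached 1 FPKM and 6 reached 10, with a median of 0.674. These counts lie near the shares over all protein-coding genes, 44.3% and 22.3%. Il2, the growth factor of activated T cells, had 95.4, 88.02, 94.5 and 73.5 FPKM and Il10, an inhibitory cytokine, 74.3, 81.98, 80.1 and 80.8. Replicate 4 was lowest for Il2, while the Il10 values did not set it apart. Il21, a cytokine of follicular help, had 41.4 ± 5.21 FPKM. Il9 (18.2, 19.6, 18.8 and 7.66), Il22 (14.5 ± 3.58) and Il13 (14.5 ± 3.21) followed, and Il4 (9.15 ± 1.94) and Il17a (5.75 ± 1.12) were lower. Il5, the partner of Il13 and Il4 in T helper 2 cells, had 0.242 ± 0.146 FPKM from 21 counts. Il17f had 1.13 ± 0.325 FPKM and Il3 0.887 ± 0.662. Il20 and Il25 had no count. Il22 shares 41.0% of its 50-base stretches with another gene, so its level is uncertain.

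Outside the interleukins, 23 of 31 interferon, TNF family and growth factor genes reached 1 FPKM and 14 reached 10, with a median of 3.89. Mif, macrophage migration inhibitory factor, had 434, 454, 437 and 292 FPKM. The interferon gamma gene Ifng had 112, 138, 122 and 189 FPKM and ranked 244, with the highest value in replicate 4, and 25.9% of its annotated exon bases are shared with the same-strand gene Gm49751. Lta, which encodes lymphotoxin alpha, had 161, 159, 164 and 86.7 FPKM and Ltb 127 ± 10.5. The highest TNF family ligand was Tnfsf8, which encodes CD30 ligand (163 ± 27.3), and Tnf itself had 56.03, 56.3, 68.6 and 43.1. Replicate 4 was lowest for Lta, and without it Lta stood at 161 and Ifng at 124 FPKM. Lif, an interleukin 6 family cytokine, had 63.4, 60.4, 61.1 and 63.6 FPKM and was steady over the libraries. Tgfb1 had 39.1 ± 6.26 FPKM, while Tgfb2 (0.325 ± 0.0470) and Tgfb3 (0.144 ± 0.0607) stayed under 1 FPKM. Tnfsf11, which encodes RANKL, had 23.1, 22.7, 24.01 and 38.2 FPKM, highest in replicate 4. Csf2, which encodes GM-CSF, had 3.33 ± 0.969 FPKM, the platelet-derived growth factor Pdgfb 3.89 ± 0.631, and Ifnb1 no count.

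Among chemokines 14 of 33 reached 1 FPKM, 4 reached 10 and 11 had no count, with a median of 0.4696 FPKM. Over all protein-coding genes 44.3% and 22.3% reached these levels, so the count at 1 FPKM lay near that share. Ccl3 had 203, 228, 224 and 103 FPKM and its neighbour in function Ccl4 80.8, 96.98, 88.9 and 119.8; both attract leukocytes. Replicate 4 was lowest for Ccl3 and highest for Ccl4, and Ccl3 exceeded Ccl4 only in replicates 1 to 3, where they averaged 218 and 88.9 FPKM. Ccl22 had 15.7 ± 1.41 FPKM and Ccl5 10.9, 11.9, 11.4 and 6.16. Ccl1, the chemokine named in the title of the study, had 1.51, 1.63, 1.82 and 1.09 FPKM from 51, 61, 58 and 37 counts at rank 9277. Ccr8, the receptor of Ccl1, stood far above it, with 124, 127, 124 and 76.98 FPKM at rank 328, lowest in replicate 4, and 125 at rank 275 without it. Ccl1 stood at 1.65 FPKM and rank 9154 without it. Of 30 chemokine and homing receptors, Ccr7 and Ccr8 among them, 21 reached 1 FPKM and 15 reached 10, with a median of 9.70. The other chemokine receptors were Ccr4 (45.2 ± 4.83), Cxcr6 (16.7 ± 1.69), Cxcr3 (13.8 ± 1.92) and Cxcr4 (9.66, 10.98, 10.1 and 5.31), while Ccr6 (2.05 ± 0.235) and Cxcr5 (3.08 ± 0.4300) were low and Ccr9 (0.101 ± 0.0513) and Ccr10 (0.0209 ± 0.0242) were under 1 FPKM. Of the integrin chains, 13 of 27 reached 1 FPKM, near the share of 44.3% over all protein-coding genes. The highest were the LFA-1 chains Itgal (106 ± 2.57) and Itgb2 (103 ± 5.15), then Itgb1 (54.8 ± 4.77) and Itgb7 (49.9 ± 3.62).

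**Figure D3:**
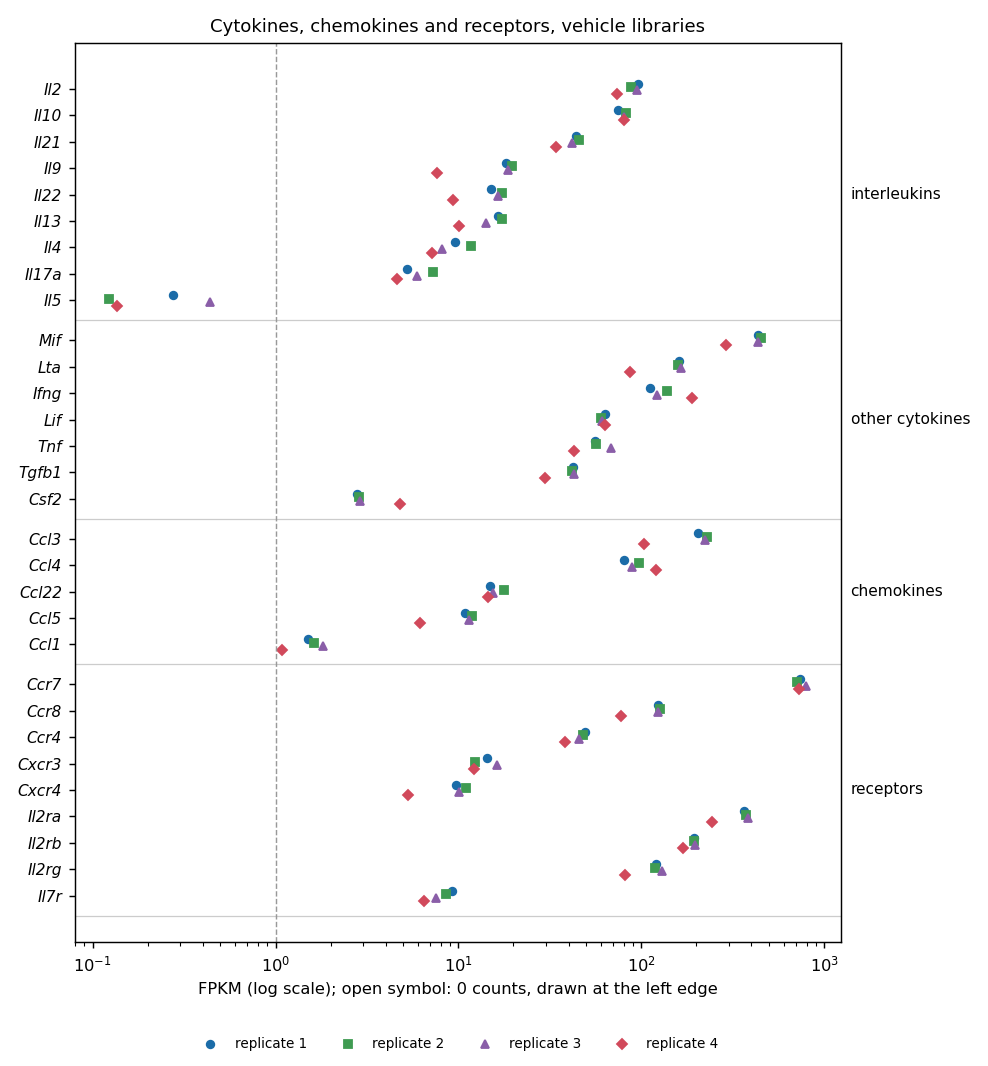
FPKM (horizontal axis, log scale) of cytokines, chemokines and receptors, with 1 symbol per vehicle library; the dashed line is 1 FPKM. Ccr7 lies highest, Il2 averages 87.8 and Il10 79.3 FPKM, Ccl1 lies just above 1 FPKM and Il5 below it, and replicate 4 is lowest for Ccl3 and Lta but highest for Ifng and Ccl4.

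Promoter windows of RefSeq (build GRCm38.p6, 250 bases before to 50 after the annotated start) were matched by symbol to 16497 of the protein-coding genes, with 20120 windows. The windows of high and low genes differed in base composition. The ratio of observed to expected CpG had a median of 0.201 for genes with no count, 0.438 for genes under 1 FPKM, 0.746 from 1 to 10, 0.809 from 10 to 100 and 0.821 at 100 FPKM or more. The letters TATAAA, known as the core of a promoter box shortly before the start, were searched on the sense strand only, starting 20 to 40 bases before the start, and were in 2.48% of all windows. They were in 5.51% of windows of genes with no count, 0.745% of windows of genes from 10 to 100 FPKM and 3.19% of windows of genes at 100 FPKM or more. Of 18 cytokine and chemokine genes of the 3 lists above with at least 10 FPKM and a window, 4 held it in 4 of 19 windows, with a median CpG ratio of 0.309. Of the 4923 windows of other genes at that level 42 did, or 0.853%, with a median CpG ratio of 0.810. A C within 5 bases of the start followed by at least 4 pyrimidines was in 24.5% of windows of genes at 100 FPKM or more and in 18.7% of all windows. These shares are a description of letters in windows and carry no test. The 60 bases before the start are shown for the 4 cytokine genes with the letters, in capitals, and for 3 genes without them that stand for translation and respiration. Ifng lies on the plus strand and all others on the minus strand, each written 5′ to 3′ along its gene, at chr3:37125955-37126014 for Il2, chr10:118440986-118441045 for Ifng, chr17:35202008-35202067 for Tnf, chr11:53634703-53634762 for Il13, chr9:78481725-78481784 for Eef1a1, chr4:86857368-86857427 for Rps6 and chr13:74350241-74350300 for Sdha.
Il2: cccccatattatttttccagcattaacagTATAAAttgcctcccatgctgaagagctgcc
Ifng: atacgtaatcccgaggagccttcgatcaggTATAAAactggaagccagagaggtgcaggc
Tnf: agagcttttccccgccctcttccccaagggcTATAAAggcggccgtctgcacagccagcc
Il13: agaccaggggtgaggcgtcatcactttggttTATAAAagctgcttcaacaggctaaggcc
Eef1a1: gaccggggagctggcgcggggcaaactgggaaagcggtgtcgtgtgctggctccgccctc
Rps6: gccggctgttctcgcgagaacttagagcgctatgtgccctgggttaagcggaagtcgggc
Sdha: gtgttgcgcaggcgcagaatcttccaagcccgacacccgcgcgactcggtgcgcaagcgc
The first T of the capitals lies 31 bases before the start in Il2, 30 in Ifng, and 29 in Tnf and Il13. The CpG ratio of the whole window was 0.153 for Il2 and 0.193 for Il13, against 0.697 for Eef1a1, 0.968 for Rps6 and 0.855 for Sdha.

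Receptors for cytokines were broadly expressed: 26 of 30 chains reached 1 FPKM and 16 reached 10, with a median of 10.5. After Il2ra and Il2rb the highest were Il21r (149 ± 5.39), Il4ra (118 ± 3.19), Il2rg and Il12rb1 (83.6 ± 3.28). The second interleukin 12 receptor chain, Il12rb2, had 16.8, 17.7, 19.6 and 10.8 FPKM, and 40.04% of its exon bases lie opposite exons of Serbp1. The interferon gamma receptor chains Ifngr1 (19.5 ± 1.94) and Ifngr2 (10.9 ± 0.756) and the TGF beta receptor chains Tgfbr2 (16.9 ± 0.633) and Tgfbr1 (9.87 ± 0.423) were at intermediate levels. The receptor chains Il23r (0.651 ± 0.313), Il1r1 (0.599 ± 0.0995) and Il9r (0.246 ± 0.0845) did not reach 1 FPKM.

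Of 14 genes of cytotoxic granules 10 reached 1 FPKM and 5 reached 10, with a median of 3.67. The granule proteoglycan Srgn had 330.5 ± 18.4 FPKM. Granzyme B, Gzmb, had 81.5, 84.6, 82.1 and 49.6 FPKM, lowest in replicate 4, and Nkg7 41.7, 46.2, 46.3 and 65.5, highest in replicate 4, with 82.7 and 44.7 without that library. Among granzymes Gzmb exceeded Gzma (9.28 ± 1.43) 8.02-fold by their means and Gzma exceeded Gzmc (2.27 ± 0.682), each in 4 of 4 libraries. Perforin, Prf1, stood at 1.55 ± 0.174 FPKM, far under Gzmb.

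Of 32 genes of the cell cycle 31 reached 1 FPKM and 18 reached 10, with a median of 12.8. The replication clamp Pcna had 116, 116, 122 and 101 FPKM and the replicative helicase subunits Mcm2 to Mcm7 27.8 to 55.96. Genes of mitosis were lower per length: Top2a had 22.6 ± 0.811 FPKM, Mki67 13.3, 12.96, 12.3 and 8.14, Ccnb1 4.91 ± 0.409, Plk1 4.83 ± 1.04 and Bub1 2.64 ± 0.885. Of the D cyclins, Ccnd2 (124 ± 8.15) exceeded Ccnd3 (14.8 ± 0.455) in 4 of 4 libraries, and Ccnd1 had 0.164 ± 0.0627 FPKM. The cell cycle inhibitor Cdkn1a, a target of p53 that encodes p21, had 124, 132, 129.6 and 152 FPKM and was the highest gene of the list. Cdkn1b had 14.7 ± 1.602 FPKM. Among 16 regulators of apoptosis all reached 1 FPKM and 13 reached 10, with a median of 31.6. The survival genes stood in the order Mcl1 (198, 196, 199 and 286), Bcl2l1 (82.6, 87.2, 85.7 and 116) and Bcl2 (31.8 ± 2.21) without overlap. Bax, which opens the outer mitochondrial membrane, had 173, 186, 188 and 257 FPKM. Replicate 4 was highest for Mcl1, Bcl2l1 and Bax. The p53 targets Bbc3 (35.02 ± 2.96) and Pmaip1 (12.5 ± 3.07) and the death receptor Fas (44.3 ± 2.51) were lower than Bax.

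A single isozyme held most of the signal at several steps of glycolysis. Of 26 such genes 21 reached 1 FPKM, 15 reached 10 and 7 reached 100, with a median of 22.5. The highest were pyruvate kinase, Pkm (416, 436, 414 and 548), and lactate dehydrogenase A, Ldha (421, 438, 412 and 486), both highest in replicate 4. Ldha exceeded Ldhb (35.6 ± 4.296) 12.3-fold by their means, Aldoa (329.9 ± 33.3) made up 99.1% of the summed FPKM of the 3 aldolases and Eno1 (257 ± 29.3) 94.3% of that of the 3 enolases. The liver pyruvate kinase Pklr and the testis enzyme Pgk2 had no count. The hexokinases Hk1 (33.2 ± 3.13) and Hk2 (32.8 ± 5.78) overlapped, as did the phosphofructokinases Pfkp (37.04 ± 2.53) and Pfkl (32.1 ± 4.58), although Pfkp was the higher in 4 of 4 libraries. Of 10 genes for glucose and lactate transport 6 reached 1 FPKM. Among glucose transporters Slc2a1 (40.6, 41.5, 39.1 and 42.8) exceeded Slc2a6 (10.7 ± 0.387) and Slc2a3 (5.04 ± 0.0510) in every library. The lactate carrier Slc16a1 (29.5 ± 2.87) exceeded Slc16a3 (9.45 ± 1.06). The low and uneven level of Gapdh, given above, stands against that of its neighbours in the pathway, Aldoa, Tpi1 (162 ± 13.8), Pgk1 (368, 384, 341 and 456) and Pgam1 (138 ± 5.53).

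The tricarboxylic acid cycle and the entry of pyruvate were covered by 31 of 34 genes at or above 1 FPKM and 24 at or above 10, with none at 100 and a median of 20.96. Malate dehydrogenase 2, Mdh2, was the highest (88.6 ± 5.59). Succinate dehydrogenase, complex II of the respiratory chain, had all 4 subunits above 10 FPKM: Sdhd (90.1, 88.1, 86.7 and 77.3), Sdha (65.8, 69.9, 68.1 and 73.3), Sdhb (46.7, 49.97, 49.1 and 62.5) and Sdhc (27.5, 26.2, 26.7 and 46.1). The order Sdhd, Sdha, Sdhb, Sdhc held in 4 of 4 libraries without overlap, and replicate 4 was lowest for Sdhd and highest for the other 3. Of the subunits of succinyl-CoA ligase, which makes succinate, Suclg1 (24.6 ± 1.105) exceeded Sucla2 (13.8 ± 2.87) and Suclg2 (9.89 ± 0.541). Isocitrate dehydrogenase 3 subunits Idh3g (34.6 ± 3.15), Idh3b (30.3 ± 1.32) and Idh3a (19.5 ± 0.599) exceeded Idh2 (14.04 ± 1.42) and Idh1 (2.59 ± 0.139). Of 10 measured genes for the handling of succinate by other routes 5 reached 1 FPKM, beside 44.3% of all protein-coding genes. The highest were the mitochondrial carriers of oxoglutarate, Slc25a11 (34.9 ± 1.52), and citrate, Slc25a1 (21.01 ± 1.502). The plasma membrane carrier of dicarboxylates Slc13a3 had 3.46, 3.88, 3.93 and 4.16 FPKM and the mitochondrial dicarboxylate carrier Slc25a10 2.76 ± 0.589. Acod1, which makes itaconate, an inhibitor of succinate dehydrogenase, had 1.37 ± 0.142 FPKM. The succinate receptor Sucnr1 had 1 count in the 4 libraries together, in replicate 3, and the carriers Slc13a2 and Slc13a5 had no count, against upper limits of 0.0215 and 0.0105 FPKM that 3 counts over the 4 libraries would give.

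**Figure D4:**
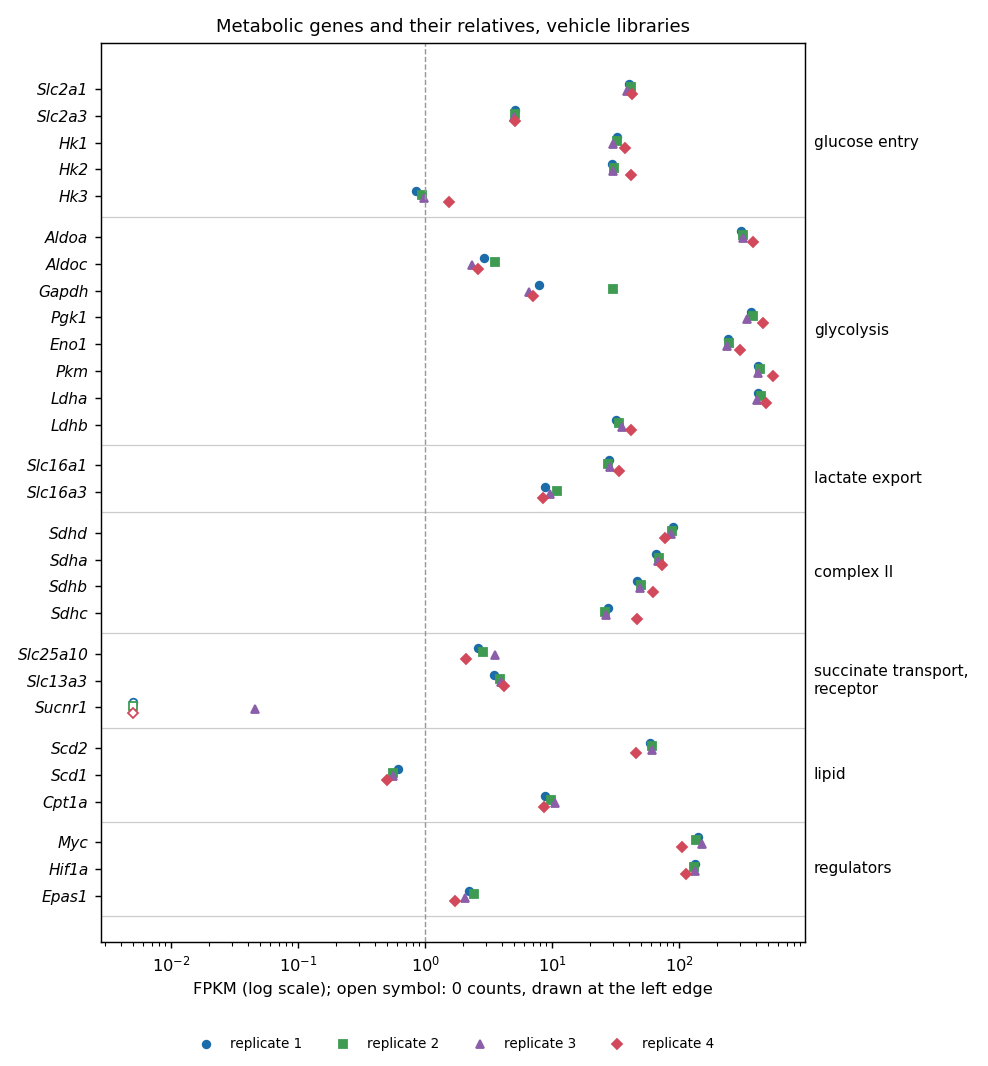
FPKM (horizontal axis, log scale) of metabolic genes and their relatives, with 1 symbol per vehicle library; open symbols are libraries with 0 counts and the dashed line is 1 FPKM. Ldha lies above Ldhb, Aldoa above Aldoc and Scd2 above Scd1 in every library, the replicate 2 value of Gapdh lies apart from the others, and Sucnr1 has a count in replicate 3 only.

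Transcripts of genes for the supply of amino acids and one-carbon units were high. Of 31 genes 26 reached 1 FPKM, 24 reached 10 and 7 reached 100, with a median of 34.4. Ornithine decarboxylase, Odc1, the first enzyme of polyamine synthesis, had 215, 215, 213 and 344 FPKM, highest in replicate 4. The serine synthesis enzyme Phgdh had 119.6, 122, 125 and 192 FPKM and Psat1 82.2 ± 2.26. Mitochondrial Shmt2 (117 ± 4.94) exceeded cytosolic Shmt1 (14.6 ± 0.418) 8.05-fold by their means, and the glutamine carrier Slc1a5 had 107 ± 4.95 FPKM. Phgdh shares 61.3% of the 50-base stretches of its protein-coding transcripts with another gene. Of 8 pentose phosphate genes 7 reached 10 FPKM, led by Taldo1 (52.02 ± 2.07), Tkt (38.8 ± 3.29) and G6pdx (27.3 ± 3.36).

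Of 29 lipid genes 22 reached 1 FPKM and 14 reached 10, with a median of 9.43. The sterol regulator Srebf2 (67.7 ± 1.42) and ATP citrate lyase, Acly (66.04 ± 1.84), led, followed by the desaturase Scd2 (56.6 ± 7.48), which exceeded Scd1 (0.557 ± 0.0433) 102-fold by their means, and fatty acid synthase, Fasn (45.6 ± 0.982). The carnitine palmitoyltransferase Cpt1a, the entry gate of fatty acid oxidation, had 9.43 ± 0.904 FPKM, and the nuclear receptors Ppara (2 counts) and Pparg (0.148 ± 0.114) were under 1 FPKM.

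Of 23 regulators of metabolism 19 reached 1 FPKM and 11 reached 10, led by Myc (139.8, 136, 151 and 105) and Hif1a (127 ± 9.75), which exceeded their relatives Mycn (0.682 ± 0.342) and Epas1 (2.104 ± 0.292) in 4 of 4 libraries. The oxygen-sensing prolyl hydroxylases Egln3 (44.03 ± 3.06), Egln1 (34.5 ± 3.83) and Egln2 (26.4 ± 5.92) overlapped between neighbours. Ppargc1a, a coactivator of mitochondrial biogenesis, had no count, against 1.63 ± 0.131 FPKM for Ppargc1b. All 17 genes of antioxidant defence reached 1 FPKM, led by thioredoxin, Txn1 (207 ± 31.6), Prdx1 (87.6 ± 8.23) and Txnip (55.5 ± 0.553), an inhibitor of thioredoxin that glucose induces. Keap1 (15.8, 15.9, 16.04 and 15.8) and Gpx1 (47.8, 48.9, 48.3 and 48.1) were steady over all libraries.

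Symbol families differed widely in how many members were expressed. Of 1134 olfactory receptor genes, Olfr56 (2.402 ± 0.479) was the only one to reach 1 FPKM and 1069 had no count. Exon overlap and shared sequence with other genes were not examined for Olfr56. Of 330 vomeronasal receptors 1 reached 1 FPKM, of 44 collagen chains 1, of 53 keratins 1 and of 39 HOX cluster genes 0. Of 12 Toll-like receptors only Tlr1 did so (2.998 ± 0.691). At the other end, 54 of 55 translation initiation factors, 77 of 78 mitochondrial ribosomal protein genes, 44 of 46 proteasome genes and 45 of 46 complex I subunit and assembly genes reached 1 FPKM. All 7 STAT, 9 interferon regulatory factor and 8 SOCS genes reached it, with Irf1 (134 ± 4.44) next to Irf4 and the feedback inhibitors Cish (89.6 ± 6.88) and Socs1 (66.7 ± 2.65) highest of their kind. Of 385 solute carriers 169 reached 1 FPKM, near the share over all protein-coding genes (44.3%), led by the ADP/ATP carrier Slc25a5 (291 ± 33.9). Of 94 potassium channel genes 6 did, led by Kcnn4 (43.4 ± 2.85), a calcium-activated channel of activated T cells, Kcnab2 (40.3 ± 0.644) and Kcna3 (13.9 ± 0.497), the voltage-gated channel of T cells. Of 20 TNF receptor family genes 14 did, with a median of 11.1 FPKM.

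The spread between libraries is given as the coefficient of variation, the SD over the mean. Over genes with a mean of at least 1 FPKM its median was 9.84%, and 4.94% without replicate 4. Over the 4923 genes with a mean of at least 10 FPKM it was 8.63%, and 3.75% without replicate 4. The 15 highest coefficients belonged to Gapdh, 8 mitochondrially encoded genes and 6 others named with replicate 4 below. Among the 10 lowest were Dhx9 (52.6, 52.3, 52.1 and 52.4 FPKM), an RNA helicase, Ctsd, Tln1, Jak3 (64.9, 64.1, 64.4 and 64.2), the kinase of the common gamma chain, Atp2a3, Agpat3, Mrps7, Acap2 and Txnl1. Genes of short listed length varied more. The median coefficient was 21.2% for genes with a listed length under 1 kilobase and 6.16% for genes of 8 kilobases or more. Without replicate 4 these were 8.05% and 2.86%. At the same FPKM a shorter gene has fewer counts, and the part of counting noise in this difference was not tested. Among replicates 1 to 3 the highest after Gapdh were CAAA01147332.1, Rnf5, Rps27rt (122, 229, 156 and 149 FPKM), Gm11361, Atp5k, Pin4, Gm8186, Pcbd2, Rps29 (262, 402, 258 and 249), Rps28, mt-Nd4l, Lsm5, Rpl38 and Gm17622. Of these 15 genes, Gapdh included, 10 were highest in replicate 2, 4 in replicate 4 and 1 in replicate 1.

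Leaving out replicate 4 lowered the median coefficient of variation, while leaving out any other library gave 10.3% to 10.7%. Of the 4923 genes with a mean of at least 10 FPKM, 56 were at least 2-fold lower and 10 at least 2-fold higher in replicate 4 than in the mean of the other 3 libraries, 1.34% in all. The same count was 1 gene for each of replicates 1, 2 and 3 against their own other 3 libraries. The 10 lowest ratios belonged to mt-Atp6 (log2 ratio -3.92), Ifitm2 (-3.90), mt-Nd2 (-3.70), mt-Nd4, mt-Cytb, mt-Co3, mt-Nd1, mt-Co1, mt-Nd5 and Glipr1 (-2.27). The interferon-induced membrane protein gene Ifitm2 had 15.4, 14.2, 13.1 and 0.956 FPKM and Glipr1 43.5, 40.5, 42.3 and 8.75, and the ribosomal protein gene Rpl31 had 357, 401, 396 and 80.6. The 10 highest belonged to Ccdc85b (35.7, 38.3, 32.6 and 91.2 FPKM, log2 ratio 1.36), Romo1 (1.24), Ppp1r35, Ramp3, Tmem160, Atp5e (44.9, 54.4, 43.9 and 101 FPKM), Tbcc, Cops9, Sem1 and Mrfap1 (1.02). The median log2 ratio was 0.07 over all 4923 genes, 0.27 over 78 nuclear genes with 1 exon in every annotated transcript, 0.15 over 175 genes with a listed length under 1 kilobase and -0.02 over 620 genes of 8 kilobases or more. By list, the median log2 ratio was -0.35 for the receptor complex, -0.38 for regulatory T cell genes, -0.43 for interleukins and -0.45 for naive and memory genes. It was -0.09 for activation markers, -0.18 for lipid genes, 0.01 for elongation and translation factors, 0.12 for regulators of apoptosis and 0.25 for glycolytic genes, each over the members with at least 1 FPKM and beside 0.02 over all 9769 such genes. These values describe 1 library and have no replicate.

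**Figure D5:**
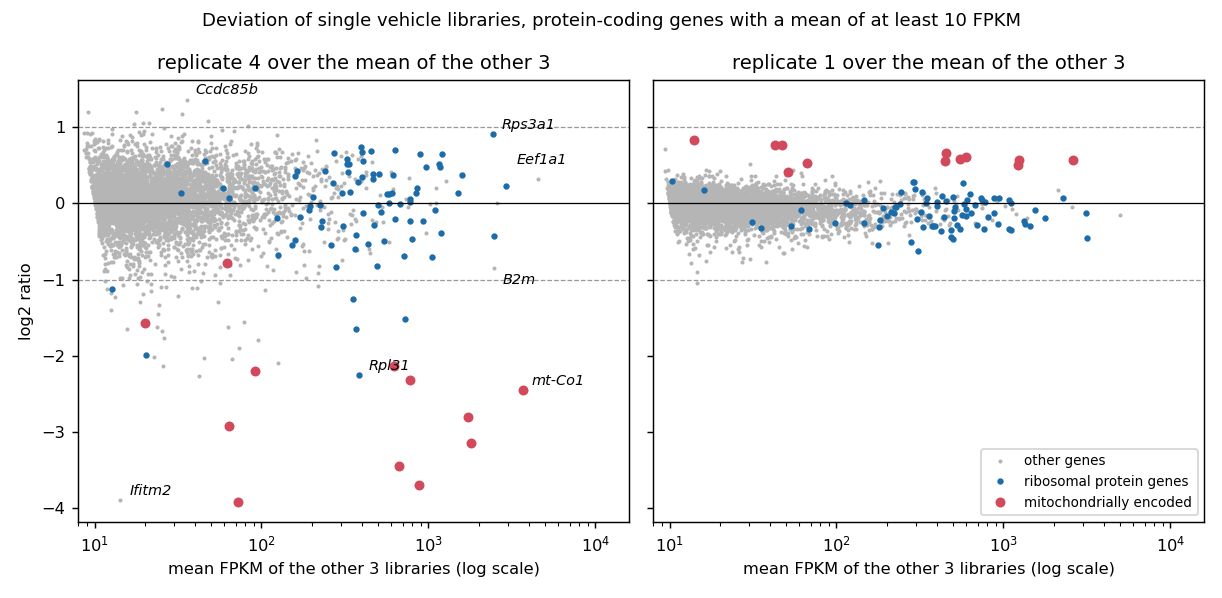
Log2 ratio of 1 library to the mean of the other 3 (vertical axis) against that mean in FPKM (horizontal axis, log scale) for protein-coding genes with a mean of at least 10 FPKM; the left panel shows replicate 4 and the right panel replicate 1, and dashed lines mark 2-fold. In replicate 4 the mitochondrially encoded genes lie at or below mt-Nd3 (-0.78) and ribosomal protein genes scatter to both sides, while in replicate 1 nearly all genes lie within 2-fold.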

How the data were processed

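RNA of 4 vehicle libraries was read from 1 deposited table. HISAT2 2.0.5 is named per the submitters' processing notes. No counting tool, annotation, genome build, strand setting or treatment of reads that match several genes is given in the sources used here. The deposited counts are whole numbers per gene and are not normalized. The FPKM values are the authors' own: within each library they equal count over listed length over a divisor for the library that differs from the summed counts by 1.12%, 0.453%, 0.158% and -2.76% in replicates 1 to 4. Start and end were both those of GENCODE M21, which is on GRCm38, for 96.5% of 21951 protein-coding genes matched by identifier. The authors' deposited table also holds signal columns (normalized group means), log2 fold changes and p-values of the treatment comparison, which were not used.

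Mean, SD and rank were computed per gene from the deposited FPKM with Python 3.11.15, pandas 2.3.3 and numpy 2.4.6, and figures were drawn with matplotlib 3.10.9. The common biological coefficient of variation was fitted to the counts with edgeR 4.0.16 in R 4.3.3 after TMM scaling and the default filter on low counts, and DESeq2 1.42.0 gave the alternative size factors. The dispersion fit with TMM scaling and the default filter, and the search for shared stretches, were tested on simulated data. In each simulated set of counts all genes had the same dispersion. The fits with DESeq2 size factors or without the filter were not tested in this way. No p-value was computed. Of 666 symbols in 43 lists 663 matched, and for 28 protein-coding symbols listed more than once the row with the most counts was used. Genes of the T cell receptor constant regions carry another biotype and are not members. The members and lists were chosen with earlier results of these data known. Genes are named by rule: members of the lists, with at least the 3 highest of each, the highest members of symbol families, the 25 highest genes, and, among genes of at least 10 FPKM, the 15 highest and 10 lowest coefficients of variation over 4 libraries, the 15 highest over replicates 1 to 3, and the 10 highest and 10 lowest in replicate 4 against the others. Some genes that the rule names are not reported here. Genes named for overlapping positions were chosen after their values were seen. Shared sequence is the share of 50-base stretches of a gene's GENCODE M21 transcripts found in a transcript of another gene. Limits at 0 counts use 3 counts over the 4 libraries and cover counting error only. Alternatives were leaving out each library, TPM, TMM-scaled FPKM, other levels for expressed, all listed genes, the median in place of the mean, and other scalings and filters of the dispersion fit.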

Additional observations from a re-analysis of the deposited data

Results flagged for a closer look

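In 76 of 360 reported quantities (21.1%), 1 of the 4 libraries stood apart: its gap to the nearest other library, over the whole range, was above Dixon's 95% critical value for 4 samples. Chance flags about 1 in 20 groups. Replicate 4 was the library in 67 of the 76. Some of these quantities are genes named for their spread or their replicate 4 ratio in these same libraries. That choice favours flags, so the 21.1% and the 67 are not to be set against chance. Over all 9769 protein-coding genes of at least 1 FPKM the rule met 1331 (13.6%), 1169 of them at replicate 4. Library preparation and RNA quality were not tested.

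Replicate 4 lay below the other 3 in the genes given here. Its values were 78.6 FPKM for Cd4, 225 for Cd5, 32.8 for Cd247, 59.0 for Cd28, 27.8 for Cd27, 136 for Icos and 0.172 for Cd8a. For the interleukin 2 receptor chains Il2ra and Il2rb they were 245 and 169 FPKM. The factors Foxp3 (9.30), Gata3 (31.9), Ets1 (67.6), Lef1 (27.3), Foxp1 (15.9), Nfatc1 (26.9), Nfatc2 (9.99) and Hif1a (113) were also lowest there. So were the regulatory T cell genes Izumo1r (47.7) and Gpr83 (9.33) and the homing receptor gene Ccr8 (77.0). Cytokine and effector genes in this set were Mif (292), Lta (86.7), Tnfsf8 (122), Tgfb1 (29.7), Il9 (7.66) and Gzmb (49.6). The remaining nuclear genes were B2m (1371), H2-DMa (15.1), Rpl31 (80.6), Glipr1 (8.75), Ifitm2 (0.956), Bub1 (1.31) and Adgre1, listed at 0 there. Adgre1 averaged only 0.0160 FPKM over the 4 libraries, so its flag rests on very few counts. Cd8a averaged only 0.237 FPKM, so its flag also rests on few counts. The mitochondrially encoded mt-Cytb (203), mt-Nd1 (247), mt-Nd2 (67.6) and mt-Co2 (20) lay far below, and mitochondrially encoded genes took 0.200% of its counts.

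Replicate 4 lay above the other 3 in a further set of genes. Its values were 5692 FPKM for Eef1a1, 4559 for Rps3a1, 1897 for Rps2 and 1397 for Rps14. The apoptosis regulators Mcl1 (286), Bax (257) and Bcl2l1 (116) were in this set. So were the metabolic genes Pkm (548), Odc1 (344), Phgdh (192), Hk2 (41.5), Sdhc (46.1) and Sucla2 (18.1) and the oxygen sensors Egln1 (40.3) and Egln2 (35.2). Of immune genes the set held Cd6 (281), Il12rb1 (88.5), Itgb1 (61.9), Tnfsf11 (38.2), Csf2 (4.78), Itga2b (7.28) and Clec9a (0.0211, a single count). The others were Ccdc85b (91.2), Mrfap1 (168), Tmem160 (75.6), Txnl1 (44.6), Tbcc (44.2), Ppp1r35 (40.6) and Ramp3 (20.9). The rule sets the gap against the range and not against the level, so steady genes can meet it. Txnl1 was such a gene, with a coefficient of variation of 0.690% over the 4 libraries.

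Another library stood apart in 9 genes. Replicate 2 was high for Gapdh (30.1 FPKM), Rps29 (402) and Rora (3.46). Replicate 1 was high for Fcer1a (1.62) and S100a8 (0.101) and low for Ncr1 (0.319). Replicate 3 was high for Lyz2 (0.509) and Sucnr1 (0.0454) and low for Ctsd (79.9). S100a8, Sucnr1 and Clec9a each had a single count over the 4 libraries, so the rule had to flag the library that held it. Such a flag says nothing about the library. Lyz2 and Ncr1 averaged only 0.448 and 0.515 FPKM, so their flags also rest on few counts. The gap of Ctsd was small, with a coefficient of variation of 0.561% over the 4 libraries.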

How the results depend on the processing

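No paired analysis was possible because the values describe 1 group and come from no test. The number of protein-coding genes at 1 FPKM or more stayed between 8842 (2 FPKM required) and 11802 (all listed genes) under the alternatives run, and between 9764 and 9776 with 1 library left out. Genes at 10 or more were 4923, and 8107 as TPM. Genes at 100 or more were 381, and 1739 as TPM. By construction TPM sums to the same total in every library, above the 269089 to 282049 to which the FPKM of protein-coding genes sums. The share of the 100 highest genes was 29.3% of FPKM, 28.0% without mitochondrially encoded genes and 17.5% of counts. The median coefficient of variation was 9.84%, with 4.94% to 10.7% when 1 library was left out, lowest without replicate 4. The common biological coefficient of variation was 12.7%, with 4.28% to 14.7% likewise and lowest without replicate 4, 12.7% with DESeq2 size factors and 12.9% with no filter on counts. Of the 373 named genes, none moved by more than the SD between libraries under TMM scaling, and 357 did under TPM. Leaving out 1 library moved the mean of 8 named genes by over 1.5 times. These were Gapdh (12.9 FPKM, 7.17 without replicate 2) and 7 genes with a mean under 1 FPKM: Csf1r (0.0660, 0.0358 without replicate 4), Ppara, Clec9a, S100a8, Sucnr1, Ccr10 and Pparg.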
